A study of Mus musculus with 6 samples.

Results

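The 10 genes described here encode receptors of the ERBB, FGF and insulin families, namely Egfr, Erbb2, Erbb3, Fgfr1, Fgfr2, Fgfr3, Fgfr4, Igf1r and Insr, together with Klb, which encodes the FGF co-receptor beta-Klotho. They were taken by gene symbol from the 25078 genes of the deposited tables, and all 10 were found. RNA-seq had been done on Hepa1-6, a mouse hepatoma line, to ask what midnolin does in liver cancer cells. The 6 libraries were 1 of untreated cells (wt), 2 of cells carrying a scramble vector (scr 25-2 and scr 50-1) and 3 of cells carrying a midnolin shRNA vector (knockdown 25-3, 50-2 and 50-5). Knockdown 50-5 is not among the libraries whose values the study tabulated. The scr and knockdown cells had been transduced with lentivirus and selected with puromycin, which the wt cells had not, and colonies had then been grown from single cells by limiting dilution. A library may therefore stand for 1 clone, and differences between clones cannot be told apart from differences between treatments where the groups are this small. The labels do not state whether libraries of a group came from separate cultures, so p-values measure only the spread between these libraries. The 25 and 50 in the library names are not explained, and the names of the knockdown libraries read KO although the treatment given is an shRNA.

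Receptor tyrosine kinases carry growth factor signals across the cell membrane: ligand binding brings receptor chains together, the kinases phosphorylate each other, and adaptors then start the RAS-MAPK and PI3K-AKT arms. In liver, EGFR and its ERBB partners take part in regeneration, the insulin receptor controls glucose and lipid metabolism, and FGFR4 with beta-Klotho receives the intestinal hormone FGF15, which lowers bile acid synthesis. Adult hepatocytes are known to express much more insulin receptor than IGF1 receptor.

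The RNA of 2 FGF receptors was higher in the knockdown than in the scr libraries, and that of the insulin receptor was lower. Egfr, the most abundant of the 10, did not pass the test. In RPKM (reads scaled by exon length and library size), Fgfr4 averaged 16.9 ± 1.13 (SD, n = 3 libraries) after knockdown and 1.25 ± 1.41 (SD, n = 2) with the scramble vector. Fgfr2 had 7.48 ± 4.82 (SD, n = 3) against 0.815 ± 0.141 (SD, n = 2), and wt, at 7.27, lay within the knockdown range. Insr had 10.7 ± 0.648 (SD, n = 3) against 19.6 ± 2.23 (SD, n = 2). A gene entered the test if its RPKM was over 1 in at least 1 of the 5 scr and knockdown libraries, which 8 of the 10 genes met, and was called at an FDR under 0.05 with a fold change of at least 1.5 in either direction. Of these 8 genes, 2 rose, 1 fell and 5 were not called. Over all 11577 genes tested 10.6% were called, 5.4% higher and 5.23% lower. The FDRs of Fgfr2 and Fgfr4, 0.0476 and 0.0496, lay just under the threshold. Without knockdown 50-5, 0 of the 8 were called, beside 3.01% of all genes in that fit. Erbb3 and Fgfr2 entered through knockdown libraries alone and Klb through an scr library alone, so the 3 of 8 is a description of genes that passed the filter. The knockdown and scr libraries did not overlap in RPKM for 4 of the 8 genes, against 50.2% of all genes tested. Because RNA was measured in bulk, fewer cells with a transcript and less transcript per cell cannot be told apart.

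Between 25586301 and 33119710 reads per library fell on genes, and the ribosomal transcript Rn45s took 10.1% to 13.1% of them. RPKM of the targeted gene Midn ran from 50.8 to 59.6 in scr and from 20.3 to 22.1 in knockdown libraries, which is -1.38 ± 0.133 (SE) as a log2 fold change (FDR 0.00777 by Benjamini-Hochberg adjustment of edgeR's quasi-likelihood test, which gave every FDR here unless another tool is named). Of 12 hepatocyte and hepatoma markers 11 had a mean RPKM over 1, the exception being Apoa1, and their summed RPKM was 4260 to 5006 in scr and 1577 to 2559 in knockdown libraries. The list did not move as one: Alb had 1877 and 2804 in scr and 20.9 to 336 in knockdown libraries, whereas Apoe had 1178 and 818 against 1327 to 1500 and Apob 3.00 and 1.07 against 4.37 to 52.2. The endothelial list of 6 markers summed to at most 0.511 in scr and knockdown libraries. The 7 Kupffer cell and leukocyte markers summed to 4.18 to 4.88 in scr and 8.64 to 13.7 in knockdown libraries, with Clec4f and Cd3e at 0 in all libraries and Ptprc at no more than 0.160. Most of this sum was Cd68, at 3.02 and 4.53 in scr and 6.22 to 9.21 in knockdown libraries, and Csf1r, at 1.12 and 0.0725 against 2.26 to 4.27. The 7 stellate cell and fibroblast markers, nearly all of it Dcn, summed to 562.5 to 594 and 409 to 573, and the 6 bile duct markers, mostly Spp1, to 204 to 565 and 379 to 554, in scr and knockdown. Krt7 of the bile duct list had 21.3 and 13.9 in scr and 0.86 to 2.15 in knockdown libraries. In wt the hepatocyte, endothelial, leukocyte, stellate and bile duct sums were 6992, 2.93, 4.18, 1030.2 and 234. The part of these shifts in the receptor results was not tested.

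**Figure D1:**
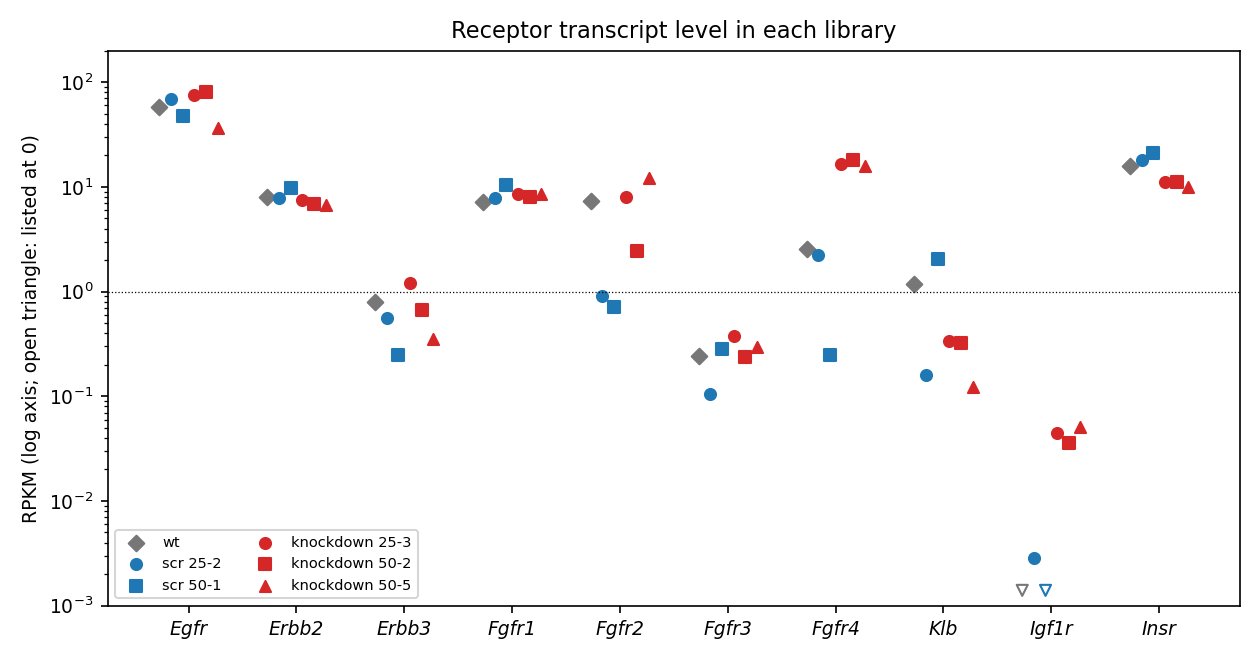
RPKM of the 10 genes in each of the 6 libraries, on a log axis, with a dotted line at the RPKM of 1 used as the filter; open triangles mark values listed at 0. The 3 knockdown libraries lie above both scr libraries for Fgfr2, Fgfr4 and Igf1r and below them for Erbb2 and Insr.

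Egfr, the receptor for EGF, TGF-alpha, amphiregulin and HB-EGF (chromosome 11 of mm10, 16752203 to 16913907), was the highest of the 10 in all 6 libraries. Its RPKM was 58.3 in wt, 69.5 in scr 25-2 and 47.3 in scr 50-1, and 76.1 in knockdown 25-3, 81.0 in 50-2 and 36.2 in 50-5. Knockdown 50-5 lay below both scr libraries and the other two knockdown libraries above both, so the groups overlapped. Knockdown against scr gave 0.12 ± 0.378 (SE) in log2 fold change, with a 95% interval of -0.81 to 1.06 (FDR 0.855), an interval that includes changes past 1.5-fold both ways. The sign turned when scr 50-1, knockdown 25-3 or knockdown 50-2 was left out, with values of -0.12, -0.015 and -0.061.

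Erbb2, the ERBB receptor with no known ligand of its own (chromosome 11, 98412484 to 98437716), had an RPKM of 8.04 in wt, 7.89 with scr 25-2, 9.76 with scr 50-1, and 7.56, 6.89 and 6.78 in knockdown 25-3, 50-2 and 50-5. All 3 knockdown libraries lay below both scr libraries, though knockdown 25-3 and scr 25-2 were close. The log2 fold change of -0.33 (95% interval -0.69 to 0.035, FDR 0.192) did not pass the test. The deposited coordinates of Erbb2 overlap those of Mien1 on the opposite strand, which had 647 to 884 counts per library. Since strand use in the counting is not stated, reads in the overlap cannot be assigned to one or the other with certainty.

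Erbb3, whose kinase is weak and which signals through its ERBB partners (chromosome 10, 128567523 to 128589635), was far less abundant. Its RPKM was 0.799 in wt, 0.561 with scr 25-2, 0.246 with scr 50-1, and 1.20, 0.660 and 0.353 in knockdown 25-3, 50-2 and 50-5. The 2 groups overlapped, and the highest knockdown library held 3.41 times the lowest. Its log2 fold change was 0.85 (95% interval -0.71 to 2.41, FDR 0.402). The size rested on the scr library used, at 1.59 without scr 25-2 and 0.38 without scr 50-1. In knockdown 50-5 both Egfr and Erbb3 were at their lowest among the knockdown libraries.

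Fgfr4, the main FGF receptor of hepatocytes (chromosome 13, 55152818 to 55168759), stood at an RPKM of 2.54 in wt, 2.25 in scr 25-2 and 0.245 in scr 50-1, against 16.5, 18.2 and 16.0 in knockdown 25-3, 50-2 and 50-5. The knockdown libraries lay close together, at 1639, 1847 and 1667 counts, whereas scr 25-2 had 208 counts and scr 50-1 had 22. The groups did not overlap, and the lowest knockdown library was well above wt too. The rise was 3.74 ± 0.860 (SE) in log2 fold change (95% interval 1.61 to 5.86, FDR 0.0496). Its size rested on the scr library used: it was 6.10 without scr 25-2 and 2.90 without scr 50-1, with FDRs of 0.00117 and 0.00394 from the same test. Without knockdown 25-3, 50-2 or 50-5 the log2 fold change stayed between 3.70 and 3.77, but the FDR rose to between 0.121 and 0.154 and the call was lost, as it was with the 25 or 50 of the names as a term (4.38, FDR 0.0591). On a scale of log2(RPKM + 0.1), scr 25-2 and scr 50-1 were 2.76 apart for Fgfr4, and 2.18% of all genes tested were as far apart.

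Fgfr2, which binds FGFs of the FGF7 and FGF10 kind or others according to its splice form (chromosome 7, 130162451 to 130266808), was below an RPKM of 1 with the scramble vector, at 0.915 in 25-2 and 0.716 in 50-1. In knockdown cells it had 7.96 in 25-3, 2.44 in 50-2 and 12.1 in 50-5. The scr libraries were alike, while the knockdown libraries spread over 4.93-fold, all of them above scr. The wt library had 7.27, inside the knockdown range and 8.92 times the scr mean, so the scr libraries were the lowest of the 6. Against scr, Fgfr2 rose by 3.19 ± 0.720 (SE) in log2 fold change (95% interval 1.41 to 4.97, FDR 0.0476). With wt added to the controls it was 1.35 and no longer called, at an FDR of 0.368 from the same test. The call was also lost without scr 25-2, scr 50-1, knockdown 25-3 or knockdown 50-5, with log2 fold changes of 3.39, 3.02, 3.13 and 2.66, and with the 25 or 50 of the names as a term (FDR 0.0814) or in limma on log2(RPKM + 0.1) (FDR 0.0506).

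The 250 bases before the annotated start are shown for both FGF receptors that rose, since their start regions differ in composition. The sequences are from RefSeq on GRCm38.p6, whose start sites for Fgfr4 and Fgfr2 are the ends of the deposited gene coordinates, and run 5′ to 3′ on the gene's strand. Fgfr4 lies on the plus strand at chr13:55152568-55152817 and Fgfr2 on the minus strand at chr7:130266809-130267058. Capitals mark GGGCGG, the GC box bound by Sp1-type factors, on the strand shown.
Fgfr4: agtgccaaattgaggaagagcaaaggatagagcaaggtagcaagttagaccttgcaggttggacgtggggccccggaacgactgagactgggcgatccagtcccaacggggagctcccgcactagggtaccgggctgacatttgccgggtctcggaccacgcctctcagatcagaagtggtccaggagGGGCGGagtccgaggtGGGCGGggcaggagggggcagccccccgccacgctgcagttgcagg
Fgfr2: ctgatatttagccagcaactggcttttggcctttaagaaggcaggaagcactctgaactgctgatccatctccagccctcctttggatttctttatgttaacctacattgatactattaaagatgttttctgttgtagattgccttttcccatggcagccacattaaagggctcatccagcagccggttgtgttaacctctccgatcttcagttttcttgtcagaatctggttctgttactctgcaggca

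The Fgfr4 stretch held 15 CG dinucleotides at 64.0% G and C, and the Fgfr2 stretch 2 at 44.0%, where the median over 32851 such stretches was 6 at 52.4%. Fgfr4 had 2 GC boxes, which begin 62 and 46 bases before the start, and 32.7% of all stretches held at least 1 on either strand. On either strand, neither stretch held the TATA box TATAAA, present in 12.4% of all stretches, or the CCAAT box CCAAT, present in 33.8%. Also without a match were the E-box CACGTG (6.02% of all stretches), the AP-1 site TGACTCA (4.46%) and the forkhead site GTAAACA (3.17%). These matches describe letters in a window and not bound sites. Stretches were found for 7 of the 10 genes, the others being Erbb3, Fgfr1 and Insr.

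Fgfr1, a receptor for many FGFs that is common in mesenchyme (chromosome 8, 25518759 to 25575718), was not called. Its RPKM was 7.17 in wt, 7.82 with scr 25-2, 10.5 with scr 50-1 and 8.59, 8.08 and 8.62 in knockdown 25-3, 50-2 and 50-5. The knockdown libraries lay between the scr libraries. The log2 fold change was -0.13 with a 95% interval of -0.53 to 0.27 (FDR 0.633), which leaves out changes past 1.5-fold. Fgfr3 was low throughout, at an RPKM of 0.244 for wt, 0.104 for scr 25-2, 0.285 for scr 50-1 and 0.375, 0.238 and 0.299 for knockdown 25-3, 50-2 and 50-5, and did not enter the test. From 14 to 54 counts per library lay behind these values, and the groups overlapped.

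Klb, whose product is the obligate partner of FGFR4 for FGF15 (chromosome 5, 65348411 to 65384003), was not called. Its RPKM was 1.17 in wt, 0.158 in scr 25-2 and 2.04 in scr 50-1, against 0.341, 0.324 and 0.123 in knockdown 25-3, 50-2 and 50-5. The scr libraries differed 12.9-fold, in the opposite order to Fgfr4. Knockdown 25-3 and 50-2 lay between them and 50-5 below both. This gave -2.07 ± 1.00 (SE) in log2 fold change, a value that was not called (95% interval -4.55 to 0.41, FDR 0.219). It was -2.95 at an FDR of 0.0213 without scr 25-2, and without scr 50-1 Klb did not enter the test. The RPKM of Fgfr4 divided by that of Klb was 2.17 in wt, 14.2 with scr 25-2, 0.120 with scr 50-1, and 48.4, 56.1 and 130.2 in the knockdown libraries in the same order. The ratio in all 3 knockdown libraries was above that in the other 3. Few Klb reads lay under some of these ratios, with 16 counts in scr 25-2 and 37, 36 and 14 in the knockdown libraries. In scr 50-1 Klb had 200 counts and in wt 105.

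Insr encodes the insulin receptor (chromosome 8, 3150922 to 3279617). Its RPKM was 15.8 in wt, 18.0 in scr 25-2 and 21.2 in scr 50-1, against 11.1 in knockdown 25-3, 11.05 in 50-2 and 9.96 in 50-5. All 3 knockdown libraries lay below both scr libraries and below wt, and wt lay below both scr libraries. From 3094 to 5672 counts per library lay behind these values. In log2 fold change this was -0.89 ± 0.131 (SE), with a 95% interval of -1.21 to -0.56 (FDR 0.0173). Omitting any single library moved it no further than -0.98 or -0.77. The call was lost without knockdown 25-3, 50-2 or 50-5, at FDRs of 0.0753, 0.0910 and 0.0681. Omitting 50-5 leaves the 4 libraries whose values the study tabulated. In that fit 0 of the 8 receptors tested were called by edgeR's quasi-likelihood test, beside 3.01% of all genes. By the same test 3 had an unadjusted p under 0.05, beside 24.8% of all genes, namely Fgfr2 (0.0105), Fgfr4 (0.0160) and Insr (0.00358). The other tested genes within 5 Mb on either side had a median log2 fold change of -0.40 around Insr (20 genes), -0.28 around Fgfr4 (56 genes) and 0.19 around Fgfr2 (107 genes).

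Igf1r, the receptor of the insulin-like growth factors (chromosome 7, 67952257 to 68233667), was close to silent. It had 0 counts in wt, 1 in scr 25-2 and 0 in scr 50-1, and 17, 14 and 20 counts in knockdown 25-3, 50-2 and 50-5, which is an RPKM of at most 0.0505. The groups did not overlap. The rate of knockdown against scr reads was 30.2 times, with an exact 95% interval of 5.18 to 1216 that covers counting error alone. Igf1r did not pass the RPKM filter. It was called higher in the fit of all genes with a count (FDR 0.0311, where 7.32% of all genes were called) and with edgeR's own count filter (FDR 0.0276, where 11.5% were), which it could pass through the knockdown libraries alone. Insr therefore made up nearly all of the RNA of this pair of receptors in every library, whether of wt, scr or knockdown cells.

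**Figure D2:**
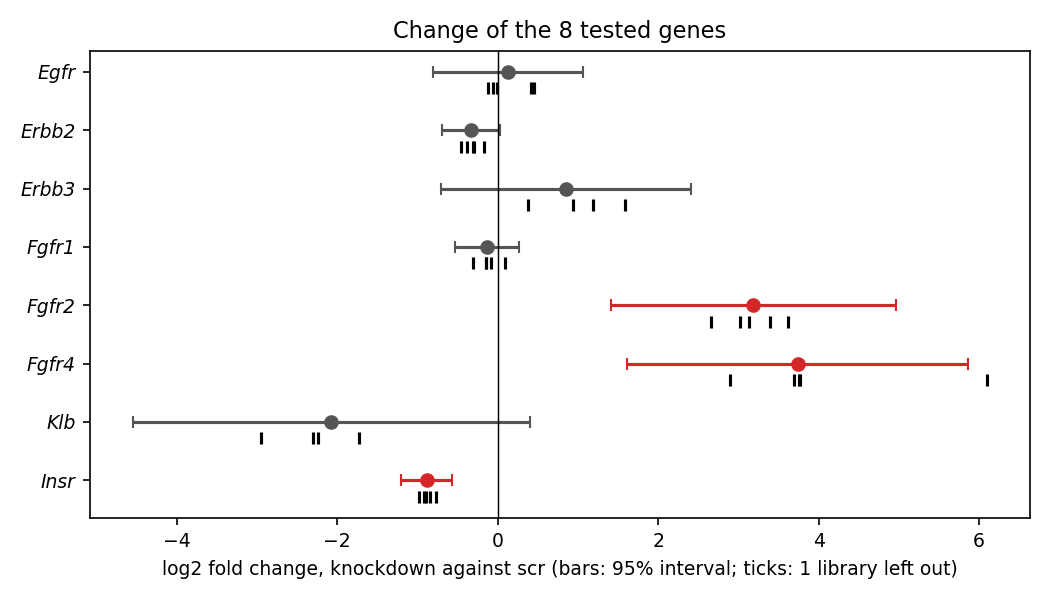
Log2 fold change of knockdown against scr for the 8 genes that entered the test, with the 95% interval as a bar; red marks the 3 called genes and ticks show the value with 1 library left out. The interval of Fgfr4 runs from 1.61 to 5.86 and that of Insr from -1.21 to -0.56, and the largest shift from leaving out 1 library is that of Fgfr4 to 6.10.

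Ordered by mean RPKM in scr cells, Egfr came first, then Insr, Fgfr1, Erbb2, Fgfr4, Klb, Fgfr2, Erbb3, Fgfr3 and Igf1r. The scr libraries of neighbouring genes overlapped for Fgfr1 and Erbb2, Fgfr4 and Klb, Klb and Fgfr2, and Erbb3 and Fgfr3. In knockdown cells Egfr was followed by Fgfr4 and then Insr, at 16.9 and 10.7, and Fgfr1, Fgfr2 and Erbb2 followed, the range of Fgfr2 overlapping those of both others, which did not overlap each other. In wt the order was Egfr, Insr, Erbb2, Fgfr2, Fgfr1 and Fgfr4.

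Summed over its 4 kinases, FGF receptor RPKM was 17.2 in wt, 11.1 with scr 25-2, 11.7 with scr 50-1, and 33.4, 28.9 and 37.0 in knockdown 25-3, 50-2 and 50-5. As a share of the RPKM of all 9 kinases this was 17.2%, then 10.4% and 13.0%, then 25.8%, 22.5% and 40.96%. Fgfr1 supplied 70.5% and 89.4% of the FGF receptor RPKM in scr 25-2 and 50-1, and 25.7%, 27.9% and 23.3% in the knockdown libraries in the same order. Fgfr4 supplied 49.4%, 62.8% and 43.3% in knockdown, and in wt Fgfr2 and Fgfr1 supplied 42.2% and 41.6%. The 2 insulin family receptors took 16.9% and 23.5% with the scramble vector and 8.62%, 8.62% and 11.1% after knockdown. These sums describe the members and were not tested.

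**Figure D3:**
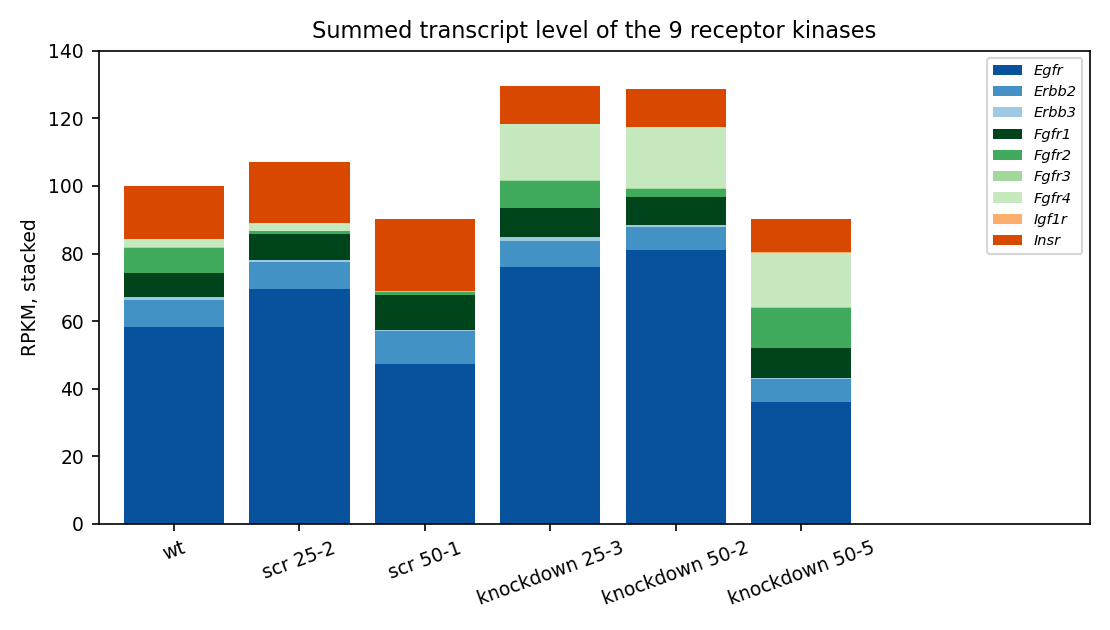
RPKM of the 9 receptor kinases stacked for each library. The FGF receptors in green add up to 11.1 and 11.7 in the scr libraries and to between 28.9 and 37.0 in the knockdown libraries, while Egfr in dark blue is lowest in knockdown 50-5 at 36.2.

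The genes nearest to each called receptor in pattern were sought among the 8184 genes whose RPKM averaged 5 or more, by the mean absolute difference of centred log2(RPKM + 0.1) over the 6 libraries. For Fgfr4 they were Gimd1 (0.235), Slco1a5 (0.385), an organic anion transporter, and Cldn3 (0.493), a tight junction claudin. Cldn3, for instance, stood at 1.58 RPKM in wt, at 1.88 with scr 25-2, 0.611 with scr 50-1, and at 22.9, 24.6 and 14.8 after knockdown. For Insr they were Tfg (0.0490), Mbd1 (0.0533) and Zfp217 (0.0557). For Fgfr2 they were Uchl4 (0.672), Uchl3 (0.728) and Sprr1a (0.762), of which Uchl4 and Uchl3 are close copies that can share reads. Likeness was looser for Fgfr2, and it is a description over 6 libraries.

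The other genes of the pathways were taken from 11 lists of 178 genes, of which 124 entered the test. Of these, 11 rose and 6 fell, or 13.7% called, beside 10.6% of all genes. Their median log2 fold change was -0.054 beside -0.0097 for all genes. The share of 10.6% is also the one to set beside the edgeR count of each list below. Of the 17 called, 4 entered through knockdown libraries alone (Il17rd, Enpp1, Vgf and Ppargc1a) and 1 through scr libraries alone (Igfals), so for these 5 the filter itself favoured the direction. The count of 17 was 4 without knockdown 25-3, 1 without 50-2, 3 without 50-5 and 34 without scr 25-2. Of the 17 genes, 13 lost their call whichever of the 3 knockdown libraries was left out, Fosl1, Igf2r and Igfals lost it without some of them, and Lrig3 kept it. Braf, called in 6 of 14 alternatives, Phlda1 in 7, Rptor in 9, and Igfals in 9 of the 13 that fitted it, were called least often. The sign of none of the 17 changed in any alternative in which it could be fitted.

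Among ligands, 0 of 5 tested ERBB ligands were called by edgeR's quasi-likelihood test or by limma, and 2 by DESeq2, which called 20.1% of all genes tested. These were also the 2 with an unadjusted p under 0.05 in edgeR, as 31.5% of all genes tested had, Areg and Nrg1, which were singled out after their values were seen. Tgfa averaged 45.1 ± 8.77 RPKM (SD, n = 2) in scr and 32.8 ± 12.6 (SD, n = 3) in knockdown cells, and Hbegf 47.7 ± 20.9 and 44.3 ± 10.5. Areg, the amphiregulin gene, had 9.42 and 6.33 RPKM with the scramble vector and 31.6, 65.4 and 9.68 after knockdown (25-3, 50-2 and 50-5), at an FDR of 0.131, so it was lowest of the knockdown libraries in 50-5, as Egfr was. Of 22 FGF genes Fgf1, a ligand of all FGF receptors, was the only one to enter the test, and it fell. It had 11.8 RPKM in wt, 7.01 with scr 25-2, 18.8 with scr 50-1 and 2.21, 2.10 and 2.78 after knockdown, with a log2 fold change of -2.46 (FDR 0.0240). This was -1.58 without scr 50-1, and the call was lost without any 1 knockdown library. Fgf15 and Fgf21 were listed at 0 in all 6 libraries.

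Of 5 tested insulin and IGF ligands and binding proteins, Igfals, the serum partner of IGF complexes, fell and 4 were not called. Igfals had 141 counts over both scr libraries and 3 over the knockdown libraries, a ratio of read rates of 0.0126 with an exact 95% interval of 0.00257 to 0.0376 for counting error alone. Igfbp1, an insulin-repressed binding protein, ran at 579 and 906.5 RPKM with the scramble vector and at 281, 119.6 and 72.3 after knockdown (25-3, 50-2 and 50-5), at an FDR of 0.0605. Igfbp4 had 634.7 ± 308.9 in scr and 624.6 ± 12.8 in knockdown (SD, n = 2 and 3). Among other receptors, Igf2r, which carries IGF2 to lysosomes, rose from 1.19 ± 0.104 to 3.10 ± 0.0898 RPKM (log2 fold change 1.37, FDR 0.0105). Fgfrl1, an FGF receptor without a kinase, had 3.35 ± 1.56 and 5.63 ± 0.383 (FDR 0.182), and Insrr, the orphan relative of Insr, 1.73 ± 2.41 and 1.69 ± 0.597 (FDR 0.986).

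Of 5 tested shedding proteases and regulators 0 were called by edgeR, DESeq2 or limma, and 4 of them, all but Adam9, had an unadjusted p under 0.05 in edgeR's quasi-likelihood test, with lower values after knockdown, beside 31.5% of all genes tested at that p. Adam10 had 71.1 ± 11.1 RPKM in scr and 51.7 ± 0.481 in knockdown (FDR 0.0801), and Adam9 32.3 ± 3.75 and 31.3 ± 6.63 (FDR 0.887). Of 17 adaptors Crk rose, with a log2 fold change of 0.75 (FDR 0.0204), and 16 were not called. Irs1, the docking protein of INSR and IGF1R, had 37.3 ± 1.32 RPKM in scr and 34.6 ± 5.90 in knockdown, and Grb7, an adaptor of ERBB2, 53.2 ± 2.89 and 39.2 ± 6.31 (FDR 0.130).

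In the RAS-MAPK arm 1 of 19 genes rose and 1 fell. Braf rose and Araf fell, both RAF kinases, with log2 fold changes of 0.67 (FDR 0.0409) and -0.70 (FDR 0.0243). In the PI3K-AKT arm 1 of 21 rose and 1 fell. Pik3r1, a regulatory subunit of PI3-kinase, had a log2 fold change of 1.39 (FDR 0.0378), and Rptor, the mTORC1 scaffold, one of -0.64 (FDR 0.0273). The medians of both lists, 0.15 and -0.10, lay near 0.

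Of 28 tested negative regulators 3 rose and 1 fell, or 14.3% called, beside 10.6% of all genes tested. Of those that rose 2, Il17rd and Enpp1, entered through knockdown libraries alone. Lrig3, a transmembrane relative of the ERBB inhibitor LRIG1, stood at 4.61 and 4.69 RPKM with the scramble vector and at 25.1, 23.5 and 24.6 after knockdown, a log2 fold change of 2.38 (FDR 0.00224) that was called in all 14 alternatives. Il17rd, an inhibitor of FGF signalling also known as Sef, rose by 2.65 (FDR 0.0218) from an RPKM of 0.327 ± 0.123. Enpp1, a membrane protein that can inhibit the insulin receptor, rose by 2.77 (FDR 0.0139) from 0.182 ± 0.0750. Spry4, a feedback inhibitor of RTK signalling induced by ERK, fell from 13.7 and 14.5 RPKM to 7.73, 8.33 and 6.52 after knockdown, a log2 fold change of -0.92 (FDR 0.0196).

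Of 16 growth factor response genes Fosl1 and Vgf rose and Phlda1 fell, or 18.75% called, beside 10.6% of all genes tested. Fosl1, an AP-1 subunit, went from 13.8 ± 1.79 to 54.5 ± 10.5 RPKM (log2 fold change 1.96, FDR 0.0101). Vgf, a neuropeptide precursor, had a log2 fold change of 2.35 (FDR 0.0266) and Phlda1 one of -0.64 (FDR 0.0407). Of 14 liver genes under insulin or FGF15 control, 6 entered the test and 2 rose. Ppargc1a, a coactivator of fasting metabolism, went from 0.304 and 0.0320 RPKM in the scr libraries to 4.14, 4.07 and 5.97 after knockdown (log2 fold change 4.79, FDR 0.0284; 7.18 without scr 25-2 and 3.94 without scr 50-1), and Trib1, a pseudokinase, 38.9 and 25.1 against 72.1, 91.8 and 98.5 (log2 fold change 1.44, FDR 0.0272). Cyp7a1, the bile acid enzyme that FGF15 represses, reached an RPKM of no more than 0.106, and Nr0b2 and Cyp8b1 were listed at 0 in all libraries.

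Of 47 other receptor tyrosine kinases 18 entered the test. By edgeR's quasi-likelihood test 2 rose and 0 fell, or 11.1% called, beside 10.6% of all genes tested. In that test 5 higher and 2 lower had an unadjusted p under 0.05, beside 31.5% of all genes tested. With DESeq2, which called 20.1% of all genes, 5 rose and 0 fell. Axl, a receptor of GAS6, was at 21.4 RPKM in wt, at 27.5 and 29.1 with the scramble vector and at 121.8, 111.3 and 119.2 after knockdown (log2 fold change 2.04, FDR 0.00396), and was called in all 14 alternatives. Pdgfra, a PDGF receptor of mesenchymal cells, had 1.93 RPKM in wt, 0.308 and 0.167 with the scramble vector and 2.70, 1.90 and 1.58 after knockdown (log2 fold change 3.10, FDR 0.0140). It was called in 11 of 14 alternatives, and the calls lost included those without knockdown 25-3 and without 50-2. Pdgfra too entered the test through knockdown libraries alone. For Pdgfra, as for Fgfr2, wt lay within the knockdown range and both scr libraries below it. The 16 others were not called by edgeR's quasi-likelihood test, and the median log2 fold change of the 18 was 0.053.

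**Figure D4:**
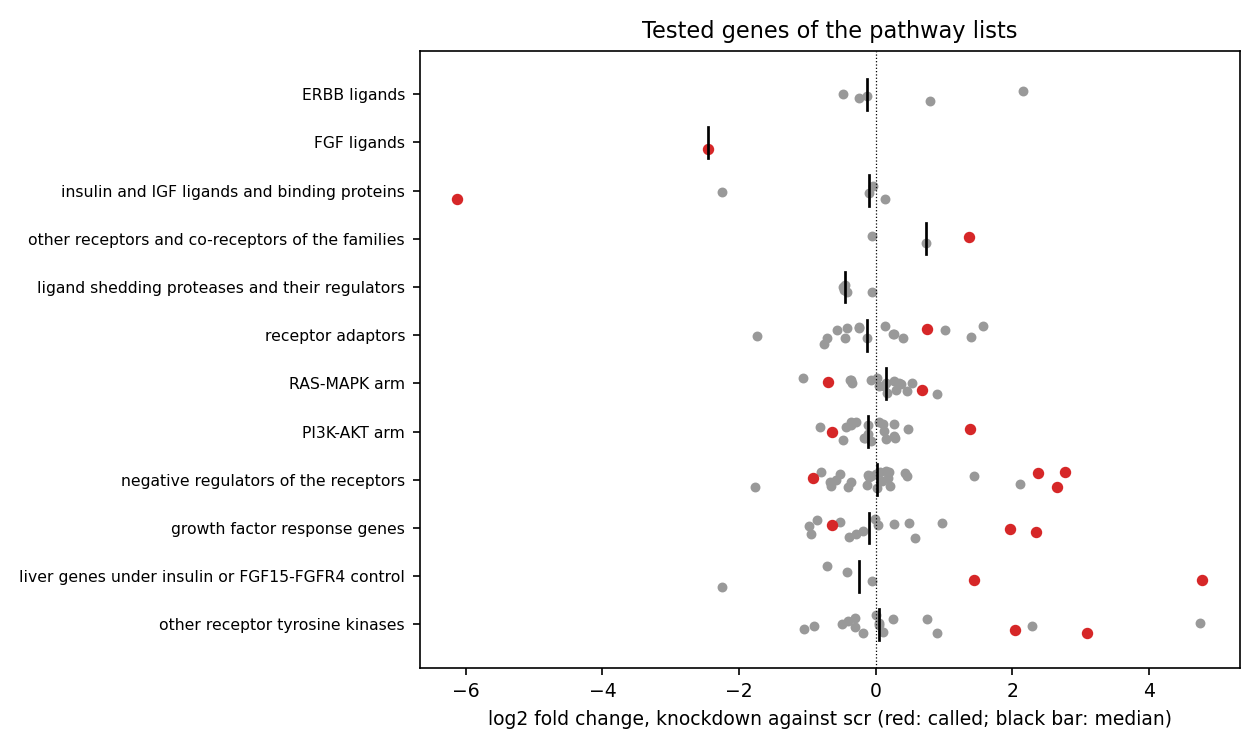
Log2 fold change of every tested gene in the 11 pathway lists and among the other receptor tyrosine kinases, with called genes in red and list medians as black bars. Apart from the FGF ligand list, which has 1 tested gene, the medians lie between -0.44 and 0.74, and single genes reach further out.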

How the data were processed

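RNA from 6 Hepa1-6 libraries was sequenced. The authors aligned the reads to mm10, counted them per RefSeq gene with HTSeq and deposited the counts without normalization; the submitters' processing notes give HTSeq 0.6.1p1, TopHat2 and bcl2fastq 2.18.0.12, and the study's methods give another HTSeq version. The authors also deposited RPKM values, scaled by exon length and by edgeR's TMM library sizes. Whether the counting used strand is not given in the sources used here.

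Counts of the 3 knockdown and 2 scr libraries were tested with edgeR 4.0.16 in R 4.3.3 (TMM scaling, quasi-likelihood test, Benjamini-Hochberg adjustment over the 11577 genes that exceeded an RPKM of 1 in any of the 5 libraries). A call needed an FDR under 0.05 and a change of 1.5-fold or more. Knockdown 50-5, which is not among the libraries whose values the study tabulated, was included because its label places it in the knockdown group. Without it 346 genes were called, against 1230. The wt library, alone in its group, entered no main test. Library columns were matched to samples by name and 0 were left unmatched. Totals of 25586301 to 33119710 counts per library set the precision, and exact 95% intervals of count ratios cover counting error only. Alternatives were DESeq2 1.42.0, limma 3.58.1 on log2(RPKM + 0.1) and log2(RPKM + 1), other scalings and filters, wt added to the controls, the 25 or 50 of the names as a term, and each library left out. The edgeR step was also run on counts simulated from the fitted dispersions as independent libraries. Such a run checks the code and cannot address differences between clones. All 10 receptors are described. In each list, up to 4 called genes with the largest change and no overlap between groups are named and, where fewer than 2 were called, up to 2 tested genes with the highest mean RPKM; others named were chosen after their values were seen. Patterns nearest to a called receptor are the 3 smallest differences. Ccn1, Ccn2 and G6pc were found under these symbols and not under their other names. The members and the lists were chosen with earlier results of these data known.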

Additional observations from a re-analysis of the deposited data

Results flagged for a closer look

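Fgfr2 in the wt library, which entered no main test, had an RPKM of 7.27, above the 0.915 and 0.716 of scr 25-2 and scr 50-1 and within the 2.44 to 12.1 of the knockdown libraries. It is listed here because a library outside the tested comparison lay well above both control libraries. The wt group has 1 library, so this difference was not tested, and transduction, puromycin selection and growth from single cells separate wt from scr in the same way and cannot be told apart.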

How the results depend on the processing

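The 1230 genes called became 2322 with DESeq2 and 807 with the 25 or 50 of the names as a term, and 131 to 2273 with 1 library left out. Of the receptors, 3 were called, 4 with no filter beyond 1 count or with edgeR's count filter (Igf1r being the added one), 1 with the 25 or 50 term and 0 to 3 with 1 library left out. Receptors called higher numbered 2, 1 with either limma pseudocount, 1 with wt added to the controls, 0 with the 25 or 50 term and 0 to 1 with 1 library left out; receptors called lower numbered 1, and 0 to 2 with 1 library left out. Pathway genes called numbered 17, 32 with DESeq2 and 1 to 34 with 1 library left out. Leaving out 1 library turned the sign of Egfr, whose log2 fold change ranged from -0.12 to 0.45, and of Fgfr1, from -0.31 to 0.096. Fgfr2, Fgfr4 and Insr kept their sign in all 14 alternatives and were called in 6, 10 and 11 of them. The fits with a library left out had fewer samples, and with 1 scr library that library is assumed to vary like the knockdown group. Fgfr3, at 14 to 54 counts per library, was not called without the filter (FDR 0.514, edgeR). The groups share the 25 or 50 of their names but no full replicate name, so the 25 or 50 term was the only blocked fit.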
